A study of Mus musculus with 10 samples.

Results

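The leptin receptor and the cytokine receptors that signal through gp130 were followed in the hippocampus of female tauopathy mice with or without supplemental dihydrotestosterone (DHT). The 9 genes were Lepr, Il6st, Il6ra, Lifr, Osmr, Cntfr, Il11ra1, the transcription factor Stat3 and its feedback inhibitor Socs3. They were chosen by family membership, with the DHT and void levels of the same libraries already known, so the measured contrast between the implants entered the choice. They are 9 of the 56884 genes in the count table, and all 9 were among the 17622 genes with enough counts to be tested. The DHT against void values of these 9 genes are therefore given as a description, with no p-value printed for any of them, and the counts of these genes past a limit support nothing about the implant.

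Hippocampal RNA was sequenced from 10 female mice, 1 library per mouse. Every mouse carried the P301S (PS19) transgene, human mutant Tau driven by the mouse Prnp promoter, and kept its ovaries. From 6 months of age, 5 mice received a subcutaneous SILASTIC implant filled with 10 mm of DHT, an androgen that cannot be aromatized to estrogen, and 5 received an empty (void) implant. Treatment lasted 12 weeks, with a fresh implant every 4 weeks, and hippocampi were taken at 9 to 9.5 months. Mice without the Tau transgene, males and other doses were not analysed here.

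Leptin and the interleukin-6 family act through related class I cytokine receptors. Ligand binding brings the receptor chains together, Janus kinases on their intracellular parts phosphorylate STAT3, and STAT3 moves to the nucleus, where it induces SOCS3, which in turn blocks the receptors. In the brain the leptin receptor is best known from the hypothalamus, and shorter forms of it are abundant in the choroid plexus, the epithelium that secretes cerebrospinal fluid. The oncostatin M receptor and STAT3 are known in astrocytes that react to injury, and the interleukin-6 receptor alpha chain in microglia.

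Total counts were 27188854 to 47113661 per mouse in the void group and 33523527 to 45947784 in the DHT group. Levels are CPM, the counts of a gene scaled to the size of each library after TMM normalization, and 1 count was worth 0.0209 to 0.0369 CPM. The tissue label was checked on hippocampal pyramidal and granule cell markers, of which 6 of 6 were expressed, with Zbtb20 at 748 ± 138 CPM (SD, n = 5) in void mice. Of 6 hypothalamic neuropeptide genes, Hcrt, Agrp and Oxt were at 0 in at least 1 library, and the summed level of all 6 was 1.21 to 1.55 CPM in void mice and 0.817 to 7.77 CPM in DHT mice, with a DHT median of 0.888 CPM. The highest value came from 1 mouse, DHT replicate 6, in which Pomc was at 6.40 CPM. The library numbers ran from 4 to 11 in the void group and from 18 to 23 in the DHT group, so library order and implant cannot be told apart. In bulk tissue, fewer cells of a type and less RNA per cell cannot be told apart either.

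Promoter sequence is shown for 2 of the genes, Lepr because it differed most between the groups and Socs3 because it was the 1 gene of the 9 with a STAT motif in the 250 bases before an annotated start site. Both are RefSeq sequences of build GRCm38.p6. The Lepr stretch is the 250 bases before the first of its 2 listed starts (chr4:101717157-101717406, plus strand, 58.4% G and C), and no motif is marked in it. The Socs3 stretch (chr11:117969492-117969540, minus strand) has the STAT motif in capitals.
Lepr: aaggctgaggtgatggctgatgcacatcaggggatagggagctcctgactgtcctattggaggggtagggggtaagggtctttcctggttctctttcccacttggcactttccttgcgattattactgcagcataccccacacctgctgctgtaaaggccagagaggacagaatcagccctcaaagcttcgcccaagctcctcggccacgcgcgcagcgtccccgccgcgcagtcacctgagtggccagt
Socs3: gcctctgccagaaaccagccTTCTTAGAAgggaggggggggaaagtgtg

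The STAT motif was searched as TTCNNNGAA, which reads the same on both strands, and the capitals in the Socs3 stretch end 145 bases before its start site. Of 27025 genes with a listed promoter, 8.13% held this motif in the same 250 bases, so 1 of 9 is near the share of all genes. The androgen receptor half-site AGAACA, searched on both strands, was found in the Stat3 window alone among the 9 genes, against 18.2% of all genes. The nuclear receptor half-site AGGTCA, also searched on both strands, was found in a Lifr window alone, against 15.8% of all genes. A match describes the letters and is no evidence of binding.

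The number of these genes past the limits used for all genes is given as a description only, since the same contrast entered their choice. At the limit of an adjusted p under 0.05 (edgeR's quasi-likelihood test, Benjamini-Hochberg adjustment over all genes), 5 of the 9 lay on the higher side in DHT mice (Lepr, Il6ra, Osmr, Stat3 and Socs3) and 0 on the lower side. Over all genes tested the shares were 5.22% and 0.261%, and nothing is read from the comparison with them. With a log2 fold change above 1 as well, 2 of the 9 passed (Lepr and Osmr), against 2.17% of all genes. In 3 of the 9 (Lepr, Il6ra and Osmr) every DHT mouse lay above every void mouse, against 5.39% of all genes. The median log2 fold change of the 9 was 0.37, with 7 positive and 2 negative, and that of all genes was 0.0094. These counts rested on individual mice: without void replicate 11 the 5 became 1 (Lepr), and without void replicate 4, DHT replicate 1 or DHT replicate 3 they became 3 (Lepr, Il6ra and Osmr).

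Lepr encodes the leptin receptor, which binds leptin and signals without gp130. Its level was 3.84, 5.69, 5.69, 5.66 and 7.41 CPM in void replicates 10, 11, 4, 5 and 9. In DHT replicates 1, 2, 3, 5 and 6 it was 24.2, 16.3, 19.02, 13.7 and 12.9 CPM. Every DHT mouse was above every void mouse, with a gap between 7.41 and 12.9 CPM. The mean was 5.66 ± 1.26 CPM in void and 17.2 ± 4.57 CPM in DHT mice (SD, n = 5 each), a fitted difference of 3.04-fold (log2 fold change 1.60, SE 0.20). It ranked 208 of 17622 by size of upward fold change. Fits without 1 mouse at a time gave 1.42 to 1.72. The counts are per gene and do not separate the long signalling form of the receptor from its short forms.

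**Figure D1:**
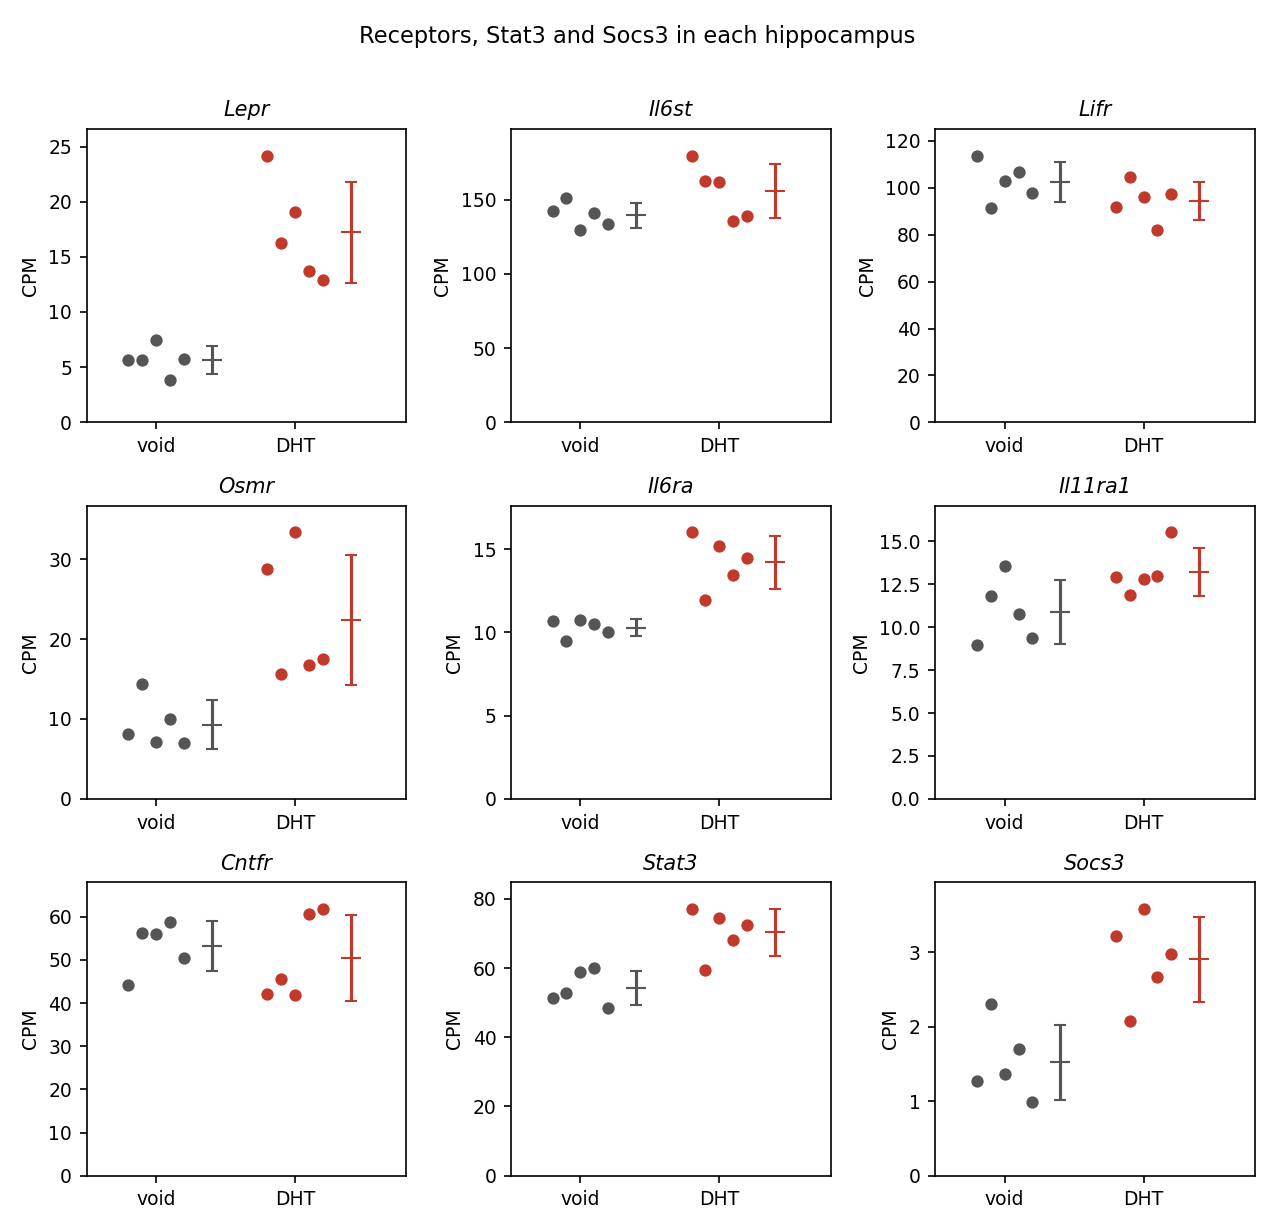
Level in CPM (linear axes from 0) of the 9 genes in each of 5 void and 5 DHT hippocampi, 1 point per mouse, with the group mean and SD beside the points. Lepr, Osmr and Il6ra are the 3 genes whose void and DHT points do not overlap.

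Il6st encodes gp130, the signalling chain shared by interleukin-6, interleukin-11, LIF, oncostatin M and CNTF. It was at 141, 134, 142, 151 and 129 CPM in void replicates 10, 11, 4, 5 and 9. The DHT mice were at 180, 162, 162, 136 and 139 CPM in replicates 1, 2, 3, 5 and 6. DHT replicates 5 and 6 lay inside the void range and the other 3 above it (log2 fold change 0.16, SE 0.08).

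Lifr, the LIF receptor that pairs with gp130, ranged from 91.6 to 114 CPM in void and from 82.1 to 104 CPM in DHT mice. The groups overlapped over most of their range, and the fitted difference was slightly negative (log2 fold change -0.12, SE 0.08).

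Osmr, the chain that pairs with gp130 to bind oncostatin M, was low in void mice. The void values were 9.96, 7.01, 8.08, 14.3 and 7.07 CPM in replicates 10, 11, 4, 5 and 9. The DHT values were 28.8, 15.6, 33.3, 16.8 and 17.5 CPM in replicates 1, 2, 3, 5 and 6. All DHT mice were above all void mice, but the gap was small (14.3 against 15.6 CPM), and DHT replicates 1 and 3 stood well above the other 3. The fitted difference was 2.42-fold (log2 fold change 1.27, SE 0.26).

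The alpha chains bind the ligand and carry little or no signalling of their own. Il6ra, the interleukin-6 receptor alpha chain, was at 10.5, 10.0, 10.7, 9.49 and 10.7 CPM in void replicates 10, 11, 4, 5 and 9. It was at 16.01, 11.9, 15.2, 13.5 and 14.5 CPM in DHT replicates 1, 2, 3, 5 and 6. The groups did not overlap, and the void mice were within 1.13-fold of each other (log2 fold change 0.47, SE 0.09). Of its exon bases, 2.80% are shared with the annotated gene Gm42809.

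Il11ra1, the interleukin-11 receptor alpha chain, ranged from 8.94 to 13.6 CPM in void and from 11.8 to 15.5 CPM in DHT mice. The groups overlapped (log2 fold change 0.28, SE 0.12), and reads shared with its near-identical copy Il11ra2, listed at 0 in every library, make the level uncertain. Cntfr, the CNTF receptor alpha chain, ranged from 44.3 to 58.7 CPM in void and from 41.9 to 61.8 CPM in DHT mice. Within the DHT group Cntfr fell into a low set, replicates 1, 2 and 3 at 42.2, 45.6 and 41.9 CPM, and a high set, replicates 5 and 6 at 60.7 and 61.8 CPM. Its log2 fold change was -0.08 (SE 0.13).

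Stat3, the transcription factor downstream of all of these receptors, was at 60.1, 48.5, 51.3, 52.7 and 58.8 CPM in void replicates 10, 11, 4, 5 and 9. In DHT replicates 1, 2, 3, 5 and 6 it was at 77.1, 59.5, 74.5, 68.0 and 72.3 CPM. DHT replicate 2 was just below the highest void mouse and the other 4 DHT mice were above all void mice (log2 fold change 0.37, SE 0.08). Its neighbour Stat5a shares 0.756% of the Stat3 exon bases.

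Socs3 encodes the inhibitor that STAT3 induces. It was the lowest of the 9, at 1.70, 0.989, 1.27, 2.30 and 1.36 CPM in void replicates 10, 11, 4, 5 and 9, from 33 counts upward. In DHT replicates 1, 2, 3, 5 and 6 it was at 3.22, 2.07, 3.58, 2.66 and 2.98 CPM. DHT replicate 2 lay below void replicate 5 and the other 4 DHT mice above every void mouse (log2 fold change 0.94, SE 0.22, 1.92-fold).

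Levels were compared between genes per kilobase of annotated exon (CPM per kb). In void mice Cntfr was highest at 19.1 ± 2.09 CPM per kb, followed by Il6st at 12.6 ± 0.755, Lifr at 9.52 ± 0.785 and Stat3 at 5.70 ± 0.520 (SD, n = 5 each). Il11ra1 came next at 2.43 ± 0.419 CPM per kb and Il6ra at 1.19 ± 0.0598. The 3 lowest were Lepr at 0.803 ± 0.179, Osmr at 0.767 ± 0.252 and Socs3 at 0.527 ± 0.174 CPM per kb, and Lepr and Osmr did not differ beyond their spread. In DHT mice Lepr reached 2.44 ± 0.648 and Osmr 1.85 ± 0.669 CPM per kb, both above Il6ra at 1.64 ± 0.184, though Osmr and Il6ra were within 1 SD. Il6st, which encodes gp130, and Lifr stayed several-fold above Lepr and Osmr in either group.

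Lepr was compared with Ttr, which encodes transthyretin, the most characteristic secreted protein of the choroid plexus. Ttr was at 329, 62.5, 670, 65.1 and 1335 CPM in void replicates 10, 11, 4, 5 and 9. The DHT mice were at 1728, 1342, 1289, 1569 and 1665 CPM in replicates 1, 2, 3, 5 and 6. Void replicate 9 was inside the DHT range and void replicates 11 and 5 were far below all other mice. The fitted difference was of the same size as that of Lepr but much less certain (log2 fold change 1.63, SE 0.68, adjusted p = 0.237). Fits without 1 mouse at a time gave 1.32 to 2.43 for Ttr. The highest was without void replicate 9 (SE 0.62, adjusted p = 0.0405 in edgeR's quasi-likelihood test).

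The spread within groups differed between Lepr and Ttr. Among void mice the highest Ttr level was 21.4-fold the lowest, and the highest Lepr level 1.93-fold the lowest. Among DHT mice these ratios were 1.34 and 1.88. In void replicate 9, with Ttr at 85.1% of the DHT median, Lepr was at 45.6%, Osmr at 40.5% and Socs3 at 45.8% of the DHT median, all below every DHT mouse. Il6ra was at 74.2%, Il6st at 80.1% and Stat3 at 81.2%, also below every DHT mouse, while Il11ra1 was at 105%, Lifr at 107% and Cntfr at 123%. The 12 choroid plexus markers of that mouse were at 63.7% to 85.1% of their DHT medians. These percentages describe void replicate 9 alone, and the part of choroid plexus RNA in the members was not tested by them. Void replicates 11 and 5, the lowest in Ttr, had Lepr at 5.69 and 5.66 CPM, close to the void median.

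**Figure D2:**
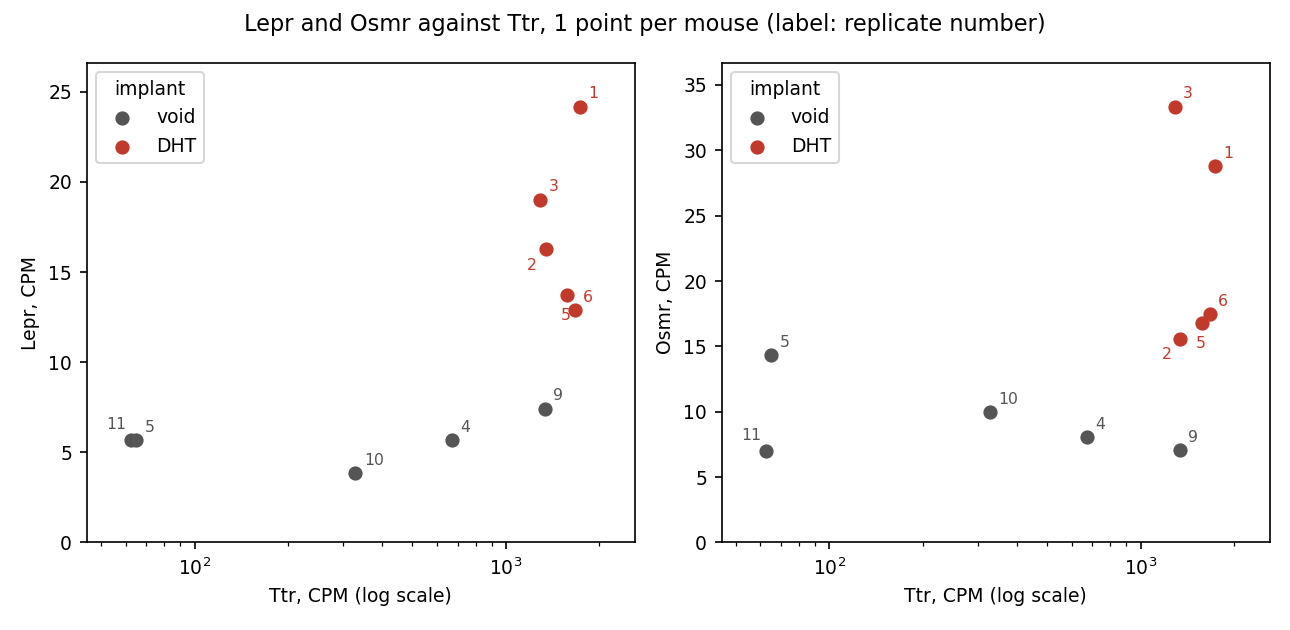
Lepr (left) and Osmr (right) in CPM on a linear axis against Ttr in CPM on a log axis, 1 point per mouse, labelled with the replicate number. Void mice span 62.5 to 1335 CPM of Ttr with Lepr between 3.84 and 7.41 CPM, and DHT mice span 12.9 to 24.2 CPM of Lepr with Ttr between 1289 and 1728 CPM.

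Because the groups form separate clusters in Lepr, the relation with Ttr was computed on deviations from each group's mean of log2 CPM, which the implant contrast did not enter. Pearson's r was 0.18 (two-sided exact permutation test within groups, p = 0.720, n = 10 mice) and Spearman's rho was 0.042 (exact p = 0.930). Without the mice farthest from the median in Ttr, void replicates 11 and 9, r was -0.11. Among the 9 genes the relation with Ttr had the highest r for Lifr (r = 0.47, exact p = 0.201), Stat3 (r = 0.43, exact p = 0.244) and Il6ra (r = 0.40, exact p = 0.0175). Over the 9 genes the adjusted p was 0.733 for Lifr, 0.733 for Stat3 and 0.158 for Il6ra, the lowest. Leaving out void replicate 9 turned the Lepr value to -0.19. The deviations in Ttr were mostly those of the void mice, whose highest level was 21.4-fold the lowest, against 1.34-fold among DHT mice. The DHT mice therefore add little to these r values.

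The whole list of 12 choroid plexus markers differed between the groups as well. All 12 had a positive log2 fold change (median 2.13) and an unadjusted p under 0.05 in edgeR. After adjustment 4 passed in edgeR and 6 in DESeq2, 0 were lower, and none was at 0 in any library. In 10 of the 12 every DHT mouse was above every void mouse, against 5.39% of all genes. The 12 genes mark the same tissue and are not 12 separate observations of the implant. This list was also chosen with earlier results of these data known. Enpp2, the most abundant, was at 628 ± 472 CPM in void and 2059 ± 398 CPM in DHT mice (SD, n = 5 each, log2 fold change 1.71, adjusted p = 0.0332). The summed level of the list was 361 to 3269 CPM in void and 3908 to 5742 CPM in DHT mice. With the mean log2 level of this list as a covariate the Lepr log2 fold change was 1.29 (SE 0.32), Osmr 1.59 (SE 0.46) and Socs3 1.12 (SE 0.39). In that edgeR fit 0 of the 9 genes passed the adjusted threshold, with 4 higher at an unadjusted p under 0.05, and 0 of all genes passed. Without void replicates 5 and 11, an alternative chosen after seeing the data, the Lepr log2 fold change was 1.58 (SE 0.25), and again 0 of the 9 passed in edgeR, with 5 higher and 1 lower unadjusted, and 0 of all genes passed. The part of choroid plexus RNA in the receptor values beyond these fits was not tested.

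The genes whose log2 CPM followed that of Lepr most closely over the 10 mice were Nqo1 (r = 0.990), B4galt1, Dab2, Slc16a12, Arhgef5, Sept10, Antxr1 and Pdpn (r = 0.972). These r values include the difference between the groups. On deviations within groups the same 8 genes had r of 0.848 to 0.941. These deviations also entered the r by which the 8 were picked, so the values are a description. Ttr stood at rank 1782 of 17615 genes, and the choroid plexus markers other than Ttr between rank 470 (Kl) and rank 1398 (Aqp1). On deviations within groups, r with Lepr was 0.18 for Ttr, the lowest of the choroid plexus markers. For the other markers it ran from 0.23 (Slc4a5) to 0.50 (Kl), and these values were not tested gene by gene. Leprot, which lies beside Lepr, stood at rank 1142. It was at 24.5 ± 1.33 CPM in void and 27.7 ± 1.02 CPM in DHT mice (SD, n = 5 each, log2 fold change 0.18, SE 0.06, adjusted p = 0.116 in edgeR's quasi-likelihood test).

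The genes nearest to the other members by the same measure differed from those of Lepr. For Osmr they were Fcgr4, Ggta1 and Parp14 (r of 0.979 to 0.987), for Socs3 Atf3, Isg20 and Ugt1a7c (0.979 to 0.985), and for Stat3 A330094K24Rik, Lag3 and Syne3 (0.980 to 0.983). Among the genes nearest to Il6ra were Tgfbr3 (0.980) and Phactr4 (0.971), and Cntfr was closest to Pde2a, Igsf21 and Shisa4 (0.975 to 0.983). Il6st was closest to Grk4, Slc35d2 and Kiz (0.951 to 0.971), Lifr to Usp31, Peg3 and Gucy1a2 (0.954 to 0.977), and Il11ra1 to Cyb561, Tmem268 and Rbm38 (0.940 to 0.963). All are descriptions over 10 mice that share group and library.

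The ligands of these receptors were scarce in the hippocampus. Lep, which encodes leptin, had 0 counts in all 10 libraries, as had Il31. A count of 0 in a library taken singly allows up to 3 counts there, and 10 libraries at 0 together set a tighter bound. Il6 had 10 counts over the void and 8 over the DHT libraries, Cntf 17 and 13, and Il27 1 and 5, all too few to be tested. Osm, which encodes oncostatin M, had 8, 1, 5, 0 and 0 counts in void replicates 10, 11, 4, 5 and 9 and 13, 7, 17, 9 and 13 counts in DHT replicates 1, 2, 3, 5 and 6. The groups overlapped at 7 and 8 counts, Osm was under the count filter, and in the fit without that filter its log2 fold change was 1.84 (SE 0.60, adjusted p = 0.150).

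Of the 6 ligand genes that could be tested, 0 passed in edgeR, with 3 at an unadjusted p under 0.05, and DESeq2 called 1 (Ctf1). Ebi3 had a log2 fold change of 0.80 (SE 0.25, adjusted p = 0.0958), Lif of 0.58 (SE 0.17, adjusted p = 0.0760) and Ctf1, cardiotrophin 1, of 0.54 (SE 0.15, adjusted p = 0.0600). Clcf1 was at 0.47 (adjusted p = 0.317) and Il11 at 0.11 (adjusted p = 0.902). Of the other receptor genes, 0 of 3 passed, with 1 (Leprot) at an unadjusted p under 0.05 and 0 in DESeq2, and Il11ra2 was at 0 in every library. These p-values are from edgeR's quasi-likelihood test.

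Over all 6 pathway lists, ligands and other receptors included, 9 of the 56 tested genes beyond the 9 members were higher in DHT mice and 0 were lower, also 0 at an unadjusted p under 0.05 and 0 in DESeq2 (edgeR, 16.1% higher, against 5.22% of all genes). The lists were drawn up with earlier results of these data known. Among kinases and STATs, 1 of 9 passed: Stat5a, a STAT activated by several cytokines, rose from 1.81 ± 0.374 to 3.25 ± 0.532 CPM (SD, n = 5 each, log2 fold change 0.85, adjusted p = 0.0164). Among inhibitors, 1 of 13 passed: Ptpn6, the phosphatase SHP-1, best known in blood-lineage cells, rose from 3.89 ± 0.243 to 9.09 ± 2.30 CPM (log2 fold change 1.22, adjusted p = 0.0067), with every DHT mouse above every void mouse. Among adaptors, 0 of 6 passed, with 2 at an unadjusted p under 0.05 and 0 in DESeq2.

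The genes known as STAT3 targets in other tissues had the highest share, with 7 of 19 higher and 0 lower (36.8%, median log2 fold change 0.49). Gfap, the intermediate filament of astrocytes, rose from 431 ± 95.3 to 975 ± 254 CPM (SD, n = 5 each, log2 fold change 1.18, adjusted p = 0.0076). Timp1, an inhibitor of metalloproteinases, had the largest log2 fold change at 2.04 (SE 0.46, adjusted p = 0.0240), from 4 to 10 counts per void library. Bcl3, a coactivator of NF-kappaB, rose by 1.70 on the log2 scale (SE 0.37, adjusted p = 0.0209) and Icam1, an adhesion molecule, by 1.01 (SE 0.20, adjusted p = 0.0133). Serpina3n rose by 0.90 (adjusted p = 0.0177), Vim by 0.83 (adjusted p = 0.0131) and the interleukin-4 receptor Il4ra by 0.48 (adjusted p = 0.0154). Gfap, Vim, Serpina3n and Timp1 also stand in the reactive astrocyte list below. The immediate early genes Fos and Junb, also on the target list, had log2 fold changes of -0.38 (SE 0.51) and -0.15 (SE 0.26).

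The count of 9 pathway genes became 4 without void replicate 11 (Gfap, Icam1, Ptpn6 and Vim), the same 4 without DHT replicate 1, and 0 without void replicates 5 and 11 together or with the choroid plexus covariate. DESeq2 called 13. Those it added to the edgeR calls included Ctf1, Myc and Stat6. In edgeR, Stat6 had a log2 fold change of 0.46 (SE 0.14, adjusted p = 0.0878) and Myc of 0.49 (SE 0.15, adjusted p = 0.0919). At an unadjusted p under 0.05 in edgeR, 11 pathway genes were higher with the covariate and 16 without the pair of void mice.

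**Figure D3:**
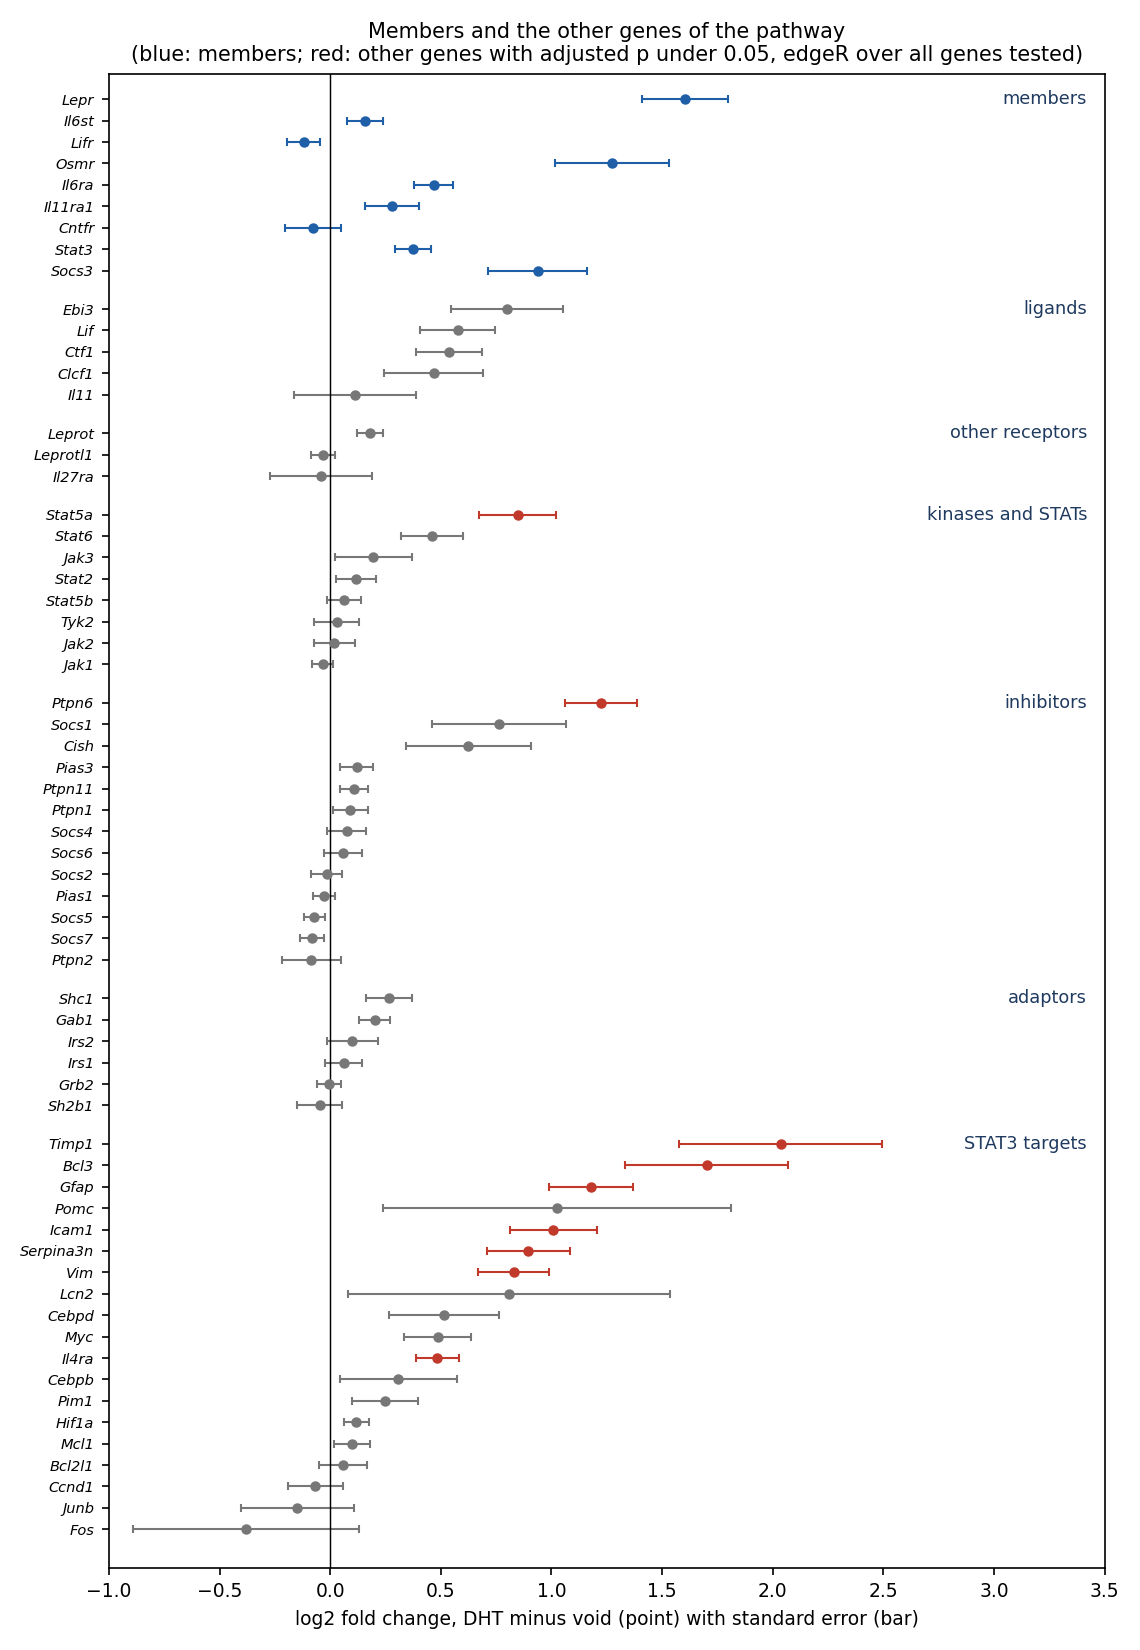
Log2 fold change, DHT minus void, with its standard error for the 9 members (blue) and 54 of the 56 tested pathway genes by list (red with an adjusted p under 0.05, grey without). The 9 red points are all to the right of 0, and 7 of them are in the list of STAT3 targets.

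Markers of glia also differed between the groups. Of 11 microglial markers 7 were higher, 0 lower and 4 did not pass, and none was at 0. Their sum was 481 to 583 CPM in void and 702 to 1084 CPM in DHT mice. Of 12 reactive astrocyte markers 7 were higher, 0 lower and 5 did not pass, and none was at 0. Their sum was 461 to 699 CPM in void and 808 to 1661 CPM in DHT mice. Over all genes tested 5.22% were higher and 0.261% lower. The marker lists were chosen with earlier results of these data known. Csf1r, the receptor that keeps microglia alive, rose by 0.55 on the log2 scale (SE 0.09, adjusted p = 0.0096). Of the 12 markers of all astrocytes, 12 of neurons, 8 of oligodendrocytes, 12 of endothelium and 10 of meningeal fibroblasts, 0 passed in either direction in edgeR, with 3, 1, 3, 0 and 0 at an unadjusted p under 0.05, and DESeq2 called 1 of them, the astrocyte gene Sox9. Slc1a2, the most abundant astrocyte marker, had a log2 fold change of -0.04 (SE 0.10). The part of these cell types in the receptor values was measured only by the relations within groups.

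Relations of the 9 genes with the mean log2 level of 8 marker lists were computed on deviations from the group means, 72 in all. After adjustment 0 of 72 had a p under 0.05, with 10 unadjusted by Pearson's r and 11 by Spearman's rho. By Pearson's r the lowest p was that of Socs3 with the reactive astrocyte list (r = 0.84, exact permutation p = 0.00104, adjusted p = 0.075, rho = 0.85, exact p = 0.00264, n = 10 mice). Its r was 0.68 without the mice farthest from the median of that list. Next was Osmr with the same list (r = 0.89, exact p = 0.0025, adjusted p = 0.09, rho = 0.81, exact p = 0.0152), with r of 0.73 without those mice. Stat3 was closest to the microglial list (r = 0.81, exact p = 0.0124, adjusted p = 0.182, rho = 0.88, exact p = 0.00542, r = 0.74 without 2 mice). Cntfr was closest to the neuronal list (r = 0.86, exact p = 0.00972, adjusted p = 0.182, rho = 0.77, exact p = 0.0428, r = 0.79 without 2 mice).

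Lepr gave no low p with the choroid plexus list (r = 0.36, exact p = 0.353, adjusted p = 0.675, rho = 0.44, exact p = 0.218, r = 0.18 without void replicates 11 and 9). Its strongest was negative, with the neuronal list (r = -0.67, exact p = 0.0443, adjusted p = 0.319, rho = -0.58, exact p = 0.129, r = -0.37 without 2 mice). Il6ra was the 1 gene of the 9 with an unadjusted p under 0.05 against the choroid plexus list (r = 0.45, exact p = 0.0126, adjusted p = 0.182, rho = 0.79, exact p = 0.00201, r = 0.52 without void replicates 11 and 9). By Spearman's rho this exact p was the lowest of all 72 relations (adjusted p = 0.095). By Pearson's r Il6ra was higher with the microglial list (r = 0.64, exact p = 0.0958, rho = 0.42, r = -0.03 without 2 mice). With the reactive astrocyte list it was also higher by r (r = 0.52, exact p = 0.205, rho = 0.41, r = 0.96 without 2 mice).

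**Figure D4:**
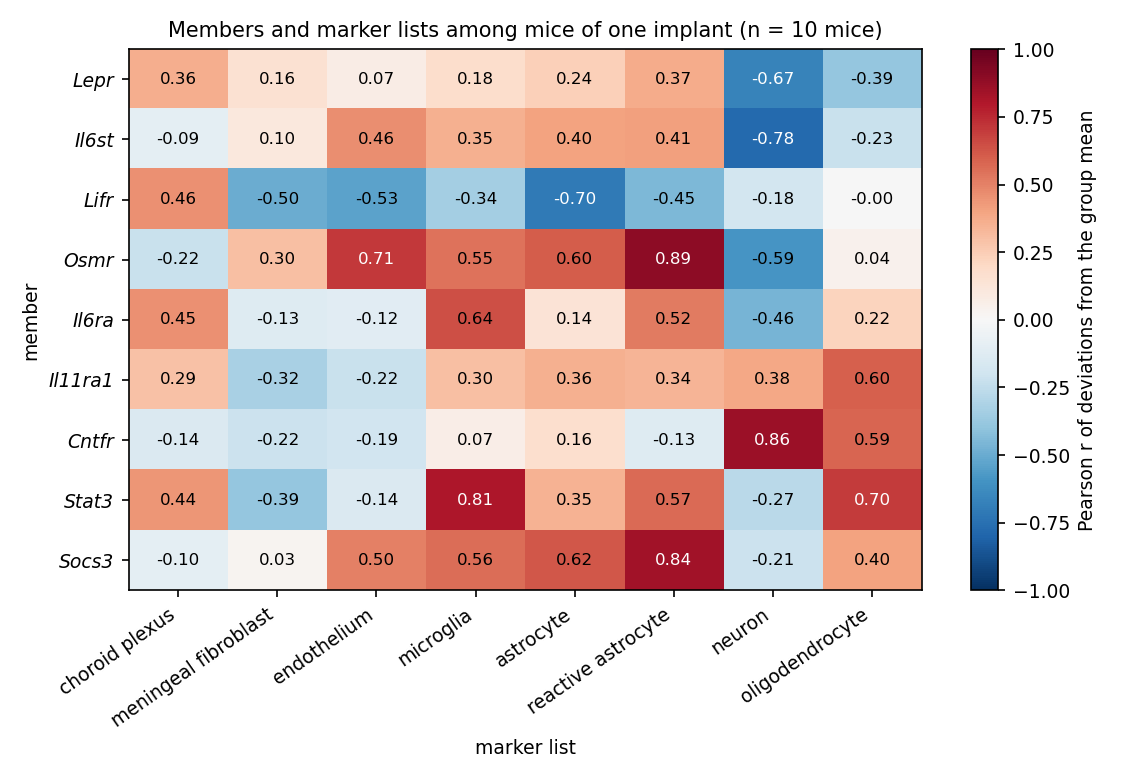
Pearson's r between each of the 9 genes (rows) and the mean log2 level of 8 marker lists (columns), on deviations from the group means over 10 mice, coloured from -1 (blue) to 1 (red). Osmr and Socs3 have their highest values with reactive astrocyte markers (0.89 and 0.84), Stat3 with microglia (0.81) and Cntfr with neurons (0.86), and 0 of the 72 passed after adjustment.

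Among the 9 genes themselves the closest pair within groups was Osmr and Socs3 (r = 0.86, rho = 0.90 over 10 mice), followed by Il6ra and Stat3 (r = 0.80, rho = 0.64). Il6st and Cntfr moved in opposite directions (r = -0.72, rho = -0.61), as did Lepr and Cntfr (r = -0.65, rho = -0.67). Lepr was near 0 with Socs3 (r = 0.016) and with Stat3 (r = 0.14). These values describe mice that share libraries and carry no test.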

How the data were processed

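Hippocampal mRNA libraries of 10 female P301S mice, 5 void and 5 DHT, 1 per mouse, were analysed. The values are raw counts per gene that the authors deposited without normalization, and all sample columns were assigned (0 columns without a sample). Per the study's methods, reads were cleaned with HTStream and aligned with STAR to mm10, while the submitters' processing notes name mm39 (GRCm39), STAR 2.7.10b and DESeq2 1.42.0. The annotation release, strand setting and handling of reads matching several genes are not given in the sources used here. Of the gene identifiers, 51948 of 56884 had a GENCODE M21 symbol and 51911 of these carried a later version, so M21 served for names and exon lengths. Promoter sequences are RefSeq's on GRCm38.p6, and all 9 members matched. Windows inside annotated untranslated exons are not printed.

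Counts were fitted in R 4.3.3 with edgeR 4.0.16 (TMM, expression filter by group, quasi-likelihood test, Benjamini-Hochberg adjustment over 17622 genes). Calls required an adjusted p under 0.05. A standard error is the log2 fold change divided by the root of the F statistic. Log2 CPM used a prior count of 2. Relations used deviations from group means and all 14400 orders of the mice within groups, whose smallest p is 6.94e-05. Alternatives were DESeq2 1.42.0, other size factors and filters, a choroid plexus covariate and leaving out each mouse.

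The members, gene lists and tests were chosen with earlier results of these data known. Genes named are the members, Ttr, Leprot, all ligands, pathway genes past the threshold, the most abundant 2 of a marker list, and the 8 (Lepr) or 3 genes most like a member. Hcrt, Agrp, Oxt, Pomc, Kl, Aqp1, Fos, Junb, Sox9, Myc, Stat6 and Il11ra2 were added after their values were seen. A few genes under this rule are not reported here. Mice are separate animals, and p-values measure the spread between animals. Per the study's methods, mice were housed together by treatment group, so housing and implant cannot be told apart.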

Additional observations from a re-analysis of the deposited data

Results flagged for a closer look

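In the void group, Bcl3 of replicate 10 lay far above the other mice, at 0.738 CPM against 0.383 CPM in the next, a gap of 0.711 of the group's range. The mean log2 level of the reactive astrocyte markers lay far above the others in void replicate 5, at 2.91 against 2.28 in the next mouse, a gap of 0.772 of the range. The limit for 5 mice is 0.71. These were 2 of 56 groups examined, and chance gives about 2.8.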

How the results depend on the processing

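The log2 fold changes of Lepr, 1.58 to 1.62, and the 5 members called were kept with DESeq2, its size factors in edgeR, library size alone and both filters. With the choroid plexus covariate the Lepr log2 fold change was 1.29, the members called were 0, the pathway genes called higher were 0 and the Ttr log2 fold change turned to -0.64. Without void replicates 5 and 11 together, added after seeing the data, Lepr was at 1.58, with 0 members and 0 pathway genes called. The first adds a term correlated with the implant and the second leaves 3 void mice, and both left 0 calls among all genes. Leaving out each mouse gave 1.42 to 1.72 for Lepr, 1 to 5 members called, 4 to 13 pathway genes higher, 0 to 0 lower and 0 to 0 relations with marker lists. The relation of Lepr with Ttr ran from -0.19, without void replicate 9, to 0.29. Without centring on the group it was 0.71 (permutation test on random orders of all mice, p = 0.0182), where the difference between groups enters it. Of the 10 fits without 1 mouse, Stat3 did not pass the limit in 5, Socs3 in 8, and Il6ra and Osmr in 1 each. DESeq2 called 1221 of all genes higher and 224 lower, against 920 and 46 in edgeR.

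The replicate numbers label separate animals and define no pairs. Per the study's methods littermates were randomized between the implants. The labels do not give the litter, so no paired analysis was possible. Depth limits Osm, Il6, Cntf and Il27, and floors cover counting error only.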
